A study of Caenorhabditis elegans with 12 samples.

Results

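Small RNAs of the Caenorhabditis elegans mutant rde-11(hj37) were set against those of the wild type N2 in RNA that had been treated with 5′ polyphosphatase, with 2 libraries per strain, 4 of the 12 libraries of the series. The members are the 2 rde-11 and the 2 N2 libraries of that RNA treatment, taken by their labels. All 4 come from whole worms that were synchronized by starvation, grown at 20 °C on HT115 bacteria that make a 400-nt pos-1 double-stranded RNA, and collected as young mothers. No worms off the pos-1 food are among the groups, so every value here belongs to worms under RNA interference. The other groups of the series used below are the untreated RNA of both strains and the treated RNA of worms carrying both meg-3(ax3055) and meg-4(ax3052), on the same food. The deposited table lists 42048 genes, of which 16491 averaged 1 fpm or more in the 4 libraries and were tested (fpm is the read count scaled to a common total of reads assigned to genes, with no correction for gene length). The sources used here do not say what the hj37 allele changes.

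In exogenous RNA interference of C. elegans, Dicer cuts imported double-stranded RNA into primary small interfering RNAs, which guide the Argonaute RDE-1 to the matching transcript. RNA-dependent RNA polymerases then copy the transcript into many secondary small RNAs, the 22G RNAs, which start with a G and carry a 5′ triphosphate. RDE-11 is a RING-type zinc finger protein that works with RDE-10 in this amplification step, and 22G RNAs against the worm's own genes are also made from templates chosen by 26G RNAs and piRNAs. An adapter is ligated to a 5′ monophosphate, so 22G RNAs enter a library only after polyphosphatase treatment. Treated libraries still hold microRNAs and piRNAs, and read lengths were not in the tables, so 22G RNAs are not separated from other small RNAs of the same gene.

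The rde-11 libraries held 5086897 and 4966570 reads assigned to genes and the N2 libraries 4907234 and 4189401. Protein-coding genes took 62.9% and 64.8% of the reads in rde-11, against 59.2% and 62.1% in N2. MicroRNAs took 18.1% and 17.2% in rde-11, against 20.6% and 18.2% in N2, and piRNAs 7.90% and 6.92% in rde-11, against 6.86% and 6.94% in N2. Long intergenic noncoding RNA genes took 2.01% and 2.02% in rde-11, against 3.16% and 3.09% in N2. Small RNAs of rde-11 itself stood at 744 and 758 fpm in the rde-11 libraries and 636 and 631 fpm in N2 (0.25 on the log2(fpm + 1) scale of all changes below, limma adjusted p = 0.132), which checks no label. Libraries are whole worms, so fewer cells of a type and fewer small RNAs per cell cannot be told apart. No label says that the replicates came from separate cultures, so adjusted p-values measure the spread between these libraries, which may be technical, and an exact permutation test of 2 against 2 libraries cannot go below p = 0.333.

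Small RNAs of 1045 genes were higher in rde-11 (6.34% of the genes tested) and those of 739 were lower (4.48%), by limma at an adjusted p under 0.05. Of the 11050 protein-coding genes tested 9.10% were higher and 5.71% lower, and of the 4247 piRNA loci 0.212% each way. The rises were many and small, and the falls fewer and deeper: 228 of the higher and 424 of the lower genes changed at least 2-fold, and 14 and 58 changed at least 4-fold. The median log2 change was 0.78 among the higher and -1.07 among the lower genes, against 0.11 over all genes tested. In summed level the higher genes gained 49658 fpm, of which the 10 largest gains held 4443, and the lower genes changed by -72441 fpm, of which the 10 largest losses held -30285. The balance of directions depended on scaling. The median gene at 50 fpm or more lay 0.10 and 0.11 log2 units above the 4-library mean in the rde-11 libraries, and in the N2 libraries it lay at -0.15 and -0.05. With that gene centred, 531 genes were higher and 1406 lower, so higher genes were 27.4% of all calls, against 58.6% without centring and 62.3% with microRNAs centred (816 and 494). Centred on the median gene, these are 3.22% and 8.53% of the genes tested, and edgeR called 4.4% higher and 7.97% lower. Of the 1045 higher genes 531 and of the 739 lower genes all 739 were still called with the median gene centred. The number of higher genes also turned on single libraries: it was 323 without rde-11 replicate 2, 617 without N2 replicate 1 and 1778 without N2 replicate 2. With all 3 strains in 1 fit, 149 of the 1045 and 379 of the 739 were still called.

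The fed target pos-1, which encodes a maternally supplied CCCH zinc finger protein needed for early embryonic cell fates, lost the most fpm of any called gene. It held 1312 and 1116 fpm in the rde-11 libraries, against 8765 and 7819 fpm in N2. The groups lay 6.83-fold apart in their means (-2.77, SE 0.09, limma adjusted p = 1.74e-09). In untreated RNA, where triphosphate small RNAs stay out, pos-1 stood at 3519 and 3264 fpm in rde-11 and 3959 and 3679 fpm in N2 (-0.17, limma adjusted p = 0.650). The difference between the treatments was -2.60 log2 units (SE 0.15, adjusted p = 3.45e-05 for the limma interaction). Reads of the fed double-stranded RNA and reads made from the worm's transcript are not separated in these values.

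Beside pos-1, small RNAs of a small set of genes were nearly lost. The F-box gene fbxa-61, of a large family of adaptors for ubiquitin ligases, held 5 and 6 reads in the rde-11 libraries and 1240 and 1156 in N2, or 0.983 and 1.21 fpm against 253 and 276 fpm (-6.98, SE 0.19, limma adjusted p = 1.33e-10). Y110A2AL.1 held 6.88 and 6.04 fpm in rde-11 and 924 and 803 fpm in N2 (-6.86, SE 0.15, limma adjusted p = 3.31e-11). eri-12, named for an enhanced RNA interference phenotype, held 7.08 and 6.24 fpm in rde-11 and 159.6 and 201 fpm in N2 (-4.56, SE 0.18, limma adjusted p = 7.08e-09). In each of these genes the libraries of a strain lay close together, and even for eri-12 the means of the strains were 27.1-fold apart. The BBSome subunit gene bbs-5 held 8.45 and 11.5 fpm in rde-11 and 359.9 and 298 fpm in N2, and the ciliary GTPase gene arl-13 18.1 and 12.9 fpm in rde-11 against 235 and 190.0 fpm in N2. The zinc finger gene ztf-31 (11.2 and 7.85 fpm in rde-11 against 156 and 94.5 fpm in N2), Y44E3A.1 (16.5 and 13.9 in rde-11 against 193 and 161 in N2) and R05G6.5 (10.2 and 8.86 in rde-11 against 114 and 86.4 in N2) fell by more than 3 log2 units.

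The genes above lead the 15 largest falls at a mean of at least 50 fpm. Of the others, the noncoding gene linc-22 held 703 and 764 fpm in rde-11 and 6424 and 6257 fpm in N2 (-3.11). The Nudix hydrolase gene ndx-2 held 43.4 and 62.8 fpm in rde-11 against 409 and 384 fpm in N2, and spds-1, which encodes spermidine synthase, 35.97 and 36.2 fpm in rde-11 against 293 and 252 fpm in N2. C06B8.7 held 171 and 92.02 fpm in rde-11 and 987 and 851 fpm in N2. The piRNA locus 21ur-9719 held 33.2 and 37.2 fpm in rde-11 against 183 and 197 fpm in N2, and mir-262 90.6 and 94.2 fpm in rde-11 against 484 and 496 fpm in N2. In none of the 15 did a rde-11 library reach an N2 library, and the highest limma adjusted p among them was 2.34e-06. edgeR and the fit with all 3 strains called all 15 as well. The exons of 5 of them (bbs-5, arl-13, Y44E3A.1, R05G6.5 and linc-22) overlap another annotated gene, and without strand the reads of the pair cannot be told apart.

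**Figure D1:**
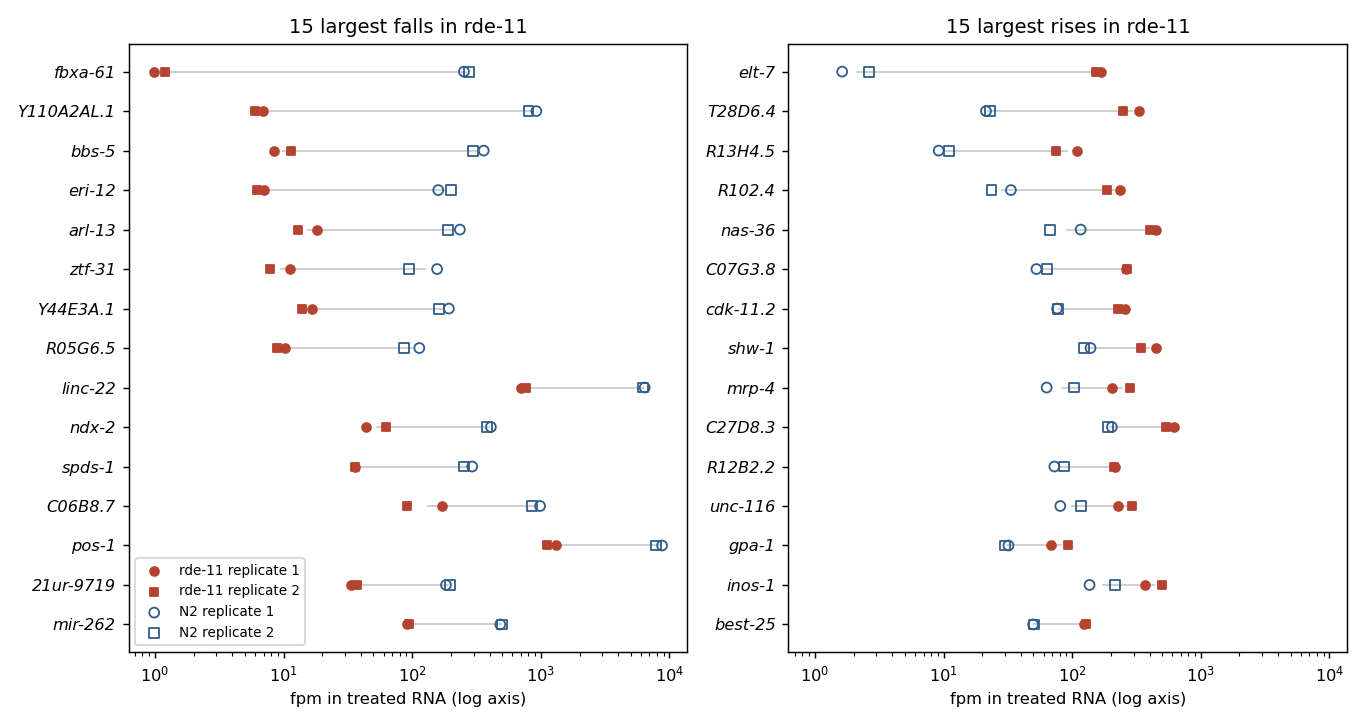
Level in each treated library (fpm, log axis) of the 15 genes with the largest log2 fall (left) and the 15 with the largest log2 rise (right) among called genes that averaged 50 fpm or more. Filled red symbols are rde-11 libraries, open blue symbols N2 libraries, and grey lines join the strain means. No rde-11 library overlaps an N2 library in any of the 30 genes, and pos-1 and linc-22 fall from the highest N2 levels.

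The treated libraries of meg-3 meg-4, which lacks a pair of disordered P granule proteins, were compared with the same N2 libraries, so the comparisons share their controls and are given side by side without a test of the difference. fbxa-61 held 0.983 and 1.21 fpm in rde-11, 169 and 187 fpm in meg-3 meg-4 and 253 and 276 fpm in N2. linc-22 held 703 and 764 fpm in rde-11, 7876 and 7236 fpm in meg-3 meg-4 and 6424 and 6257 fpm in N2. eri-12 held 7.08 and 6.24 fpm in rde-11, 209 and 216 fpm in meg-3 meg-4 and 159.6 and 201 fpm in N2, and Y110A2AL.1 6.88 and 6.04 fpm in rde-11, 720.4 and 626 fpm in meg-3 meg-4 and 924 and 803 fpm in N2. In these 4 genes the meg-3 meg-4 libraries lay far nearer to N2 than to rde-11. Others were low in both mutants: ndx-2 held 43.4 and 62.8 fpm in rde-11, 6.98 and 7.96 fpm in meg-3 meg-4 and 409 and 384 fpm in N2. arl-13 held 18.1 and 12.9 fpm in rde-11, 24.7 and 20.6 fpm in meg-3 meg-4 and 235 and 190.0 fpm in N2, and ztf-31 11.2 and 7.85 fpm in rde-11, 10.8 and 11.4 fpm in meg-3 meg-4 and 156 and 94.5 fpm in N2. Of all genes tested, 1.54% were higher and 6.72% lower in meg-3 meg-4 than in N2, 8.27% in either direction.

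elt-7, the gene of an intestinal GATA factor, rose most on the log2(fpm + 1) scale among called genes averaging 50 fpm or more. It held 166 and 153 fpm in the rde-11 libraries and 1.63 and 2.63 fpm in N2, from 8 and 11 reads (5.70, SE 0.21, limma adjusted p = 2.90e-09). T28D6.4 held 329 and 251 fpm in rde-11 and 21.4 and 23.2 fpm in N2 (3.63). R13H4.5 held 108 and 74.9 fpm in rde-11 against 9.17 and 10.98 fpm in N2. R102.4 (235 and 186 fpm in rde-11, 33.4 and 23.6 fpm in N2), the astacin protease gene nas-36 (447 and 399.7 in rde-11 and 117 and 67.1 in N2) and C07G3.8 (260.1 and 267 in rde-11 and 52.8 and 63.97 in N2) rose by more than 2 log2 units. These 6 genes lead the 15 largest rises at a mean of at least 50 fpm. The other 9 rose by 1.31 to 1.63 log2 units: the kinase gene cdk-11.2, the potassium channel gene shw-1, the transporter gene mrp-4, C27D8.3, R12B2.2, the kinesin heavy chain gene unc-116, the G protein subunit gene gpa-1, inos-1 and the bestrophin gene best-25. unc-116 held 229 and 291 fpm in rde-11, against 80.9 and 117 fpm in N2. The highest limma adjusted p among the 15 was 8.09e-04. edgeR called all 15, and with all 3 strains in 1 fit the calls of mrp-4 (adjusted p = 0.0543) and inos-1 (0.115) were lost. Exons of 4 of the 15 overlap another gene. By summed level the gains were led by genes with modest folds, such as Y67D8C.6 with 2643 and 2539 fpm in rde-11 and 1963 and 2015 fpm in N2 (0.38), whose call was lost with the median gene centred (adjusted p = 0.379) and with edgeR (0.139), and pod-2, which encodes acetyl-CoA carboxylase, with 708 and 782 fpm in rde-11 and 325 and 382 fpm in N2 (1.08).

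Some called genes are neighbours in the gene order of WBcel235, and whether calls adjoin more often than their number gives was not tested. Higher neighbours included the polymerase genes rrf-1 and ego-1, lin-15B and lin-15A, eri-1 with daf-18 and garr-1, and fbxa-170 with meg-4. Lower runs included his-61 with his-62 and his-60, E01G4.3 with E01G4.5, and 4 genes each of the clusters F19G12 and Y43F8B. The stretch around elt-7 on chromosome V, chosen after its values were seen, held calls in both directions. Next to elt-7 lies C18G1.9, with 91.2 and 106 fpm in rde-11 and 0.815 and 1.43 fpm in N2, and next to that C18G1.8, with 9.04 and 15.5 fpm in rde-11 and 0.611 and 0.477 fpm in N2. All 3 rose. The gene on the far side of C18G1.8, bgnt-1.4, had no read in either rde-11 library and 40 and 42 reads in N2, so it was at least 30.2-fold lower in rde-11 against a floor of 3 reads over both rde-11 libraries (limma adjusted p = 1.29e-05). Within 3 genes of bgnt-1.4 lie the linker histone gene hil-4, with 20.6 and 17.9 fpm in rde-11 and 47.9 and 67.1 fpm in N2, and pgl-3, a P granule gene, with 275 and 283 fpm in rde-11 and 205 and 264 fpm in N2. hil-4 fell (limma adjusted p = 4.06e-04) and pgl-3 was not called (0.248). In untreated RNA pgl-3 fell, with 0.430 and 1.03 fpm in rde-11 and 5.92 and 9.59 fpm in N2 (-2.33, limma adjusted p = 5.93e-07), and so did hil-4, with 1.07 and 1.802 fpm in rde-11 and 5.26 and 11.4 fpm in N2 (-1.87, limma adjusted p = 1.60e-04). On chromosome I, Y47H9C.9, also chosen after its values were seen, held 0.786 and 1.01 fpm in rde-11 and 43.2 and 58.96 fpm in N2, and its neighbours fbxa-216 (8.45 and 5.44 fpm in rde-11 against 79.5 and 89.8 fpm in N2) and Y47H9C.12 fell too. The adjacent exo-3 and Y47H9C.8 were not called.

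**Figure D2:**
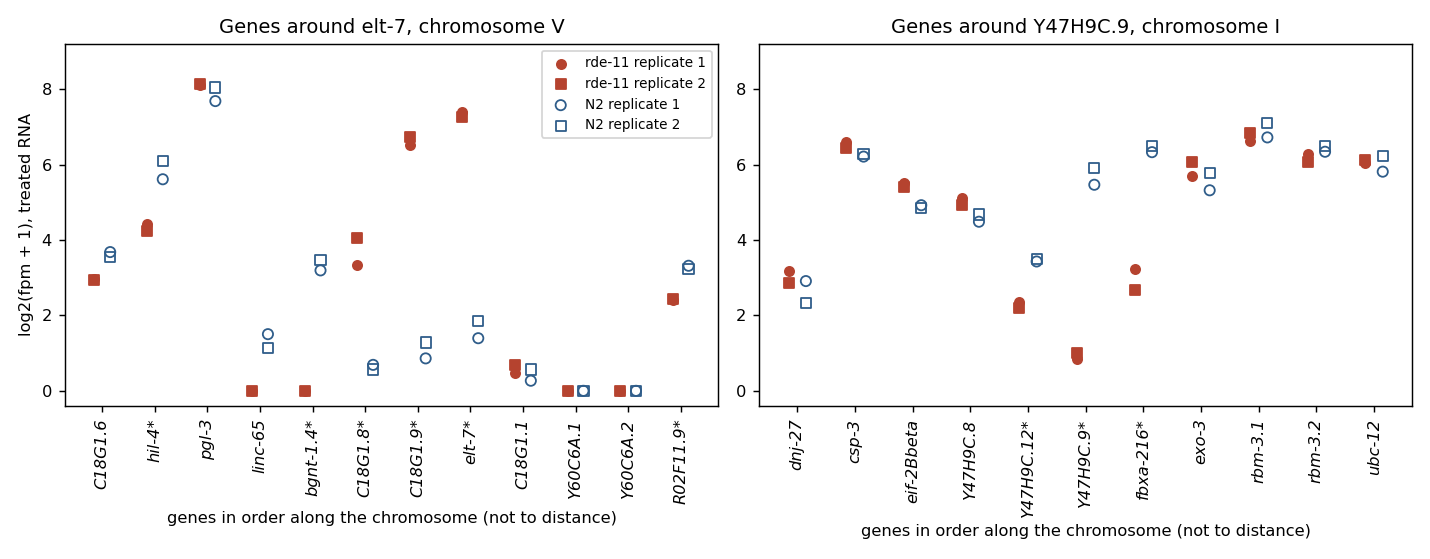
Level in each treated library, as log2(fpm + 1), of genes in chromosome order around elt-7 (left) and Y47H9C.9 (right), with the genes that flank them; asterisks mark called genes. Filled red symbols are rde-11, open blue symbols N2. elt-7, C18G1.9 and C18G1.8 are higher in rde-11 beside bgnt-1.4, which has no read there, and a run of 3 genes on chromosome I is lower between genes that were not called.

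Many histone genes lost small RNAs. Of 36 histone genes tested, 19 were lower in rde-11 (52.8%, against 4.48% of all genes tested) and 0 higher by limma (0 by edgeR, 2 at an unadjusted p under 0.05), and the list's median log2 change was -0.76, against 0.11 over all genes. All 4 tested genes of histone H2B and 6 of 8 of H2A were lower, against 5 of 9 of H4, 1 of 6 of H3 and 3 of 8 linker histones. The summed level of the H2A genes was 62.9 and 64.4 fpm in rde-11, against 214 and 216 fpm in N2. That of the H2B genes was 24.6 and 21.3 fpm in rde-11 against 84.4 and 70.4 fpm in N2. The H4 genes summed to 170.2 and 170.5 fpm in rde-11 against 306 and 295 fpm in N2, and the H3 genes to 68.6 and 70.9 fpm in rde-11 against 65.6 and 79.2 fpm in N2. The strains were thus far apart in H2A, H2B and H4 and overlapped in H3. Linker histones held most of the histone reads, with 4123 and 4140 fpm in rde-11 and 4154 and 4649 fpm in N2.

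On the log2(fpm + 1) scale the histone gene that fell most was the H2A gene his-61, with 5.31 and 3.22 fpm in rde-11 and 86.8 and 84.98 fpm in N2 (-4.07, SE 0.22, limma adjusted p = 1.22e-07). his-61 lies beside his-62 (8.65 and 5.44 fpm in rde-11 against 21.6 and 19.8 fpm in N2) and his-60 (29.1 and 32.2 in rde-11 against 51.4 and 46.5 in N2), which also fell. The H2A gene his-16 held 0 and 2 reads in rde-11 and 61 and 50 in N2. his-12 and his-43 have identical values in all libraries, 0 and 2 reads in rde-11 and 49 and 43 in N2, and may hold the same reads. The H2A gene his-3 (4.72 and 5.64 fpm in rde-11, 16.3 and 24.3 fpm in N2) and the H2B gene his-4 (8.06 and 8.26 in rde-11 and 31.6 and 31.3 in N2) are neighbours and fell by a like amount (-1.77 and -1.82). At higher levels, the H4 genes his-67 (35.2 and 32.8 fpm in rde-11 against 74.2 and 70.9 fpm in N2) and his-37 (76.3 and 80.1 in rde-11 against 131 and 118 in N2) fell less (-1.07 and -0.66). Replication-dependent histone genes are near-identical copies, and the sources used here do not say how reads that fit several of them were counted. With the median gene centred 23 of the 36 were lower (against 8.53% of all genes), and with microRNAs centred 15 (against 494 of the 16491 genes tested). With edgeR 22 of the 34 tested were lower (against 7.97%). In untreated RNA 5 of the 18 tested were lower, against 0.198% of all genes there, and they included all 4 H2A genes tested (median -1.79). The meg-3 meg-4 comparison with N2, in treated RNA, had 5 of 36 lower, against 6.72%. Of the H2A genes 4 of 8 were lower in meg-3 meg-4 (median -1.55), and of the H2B genes 0 of 4 (median 0.45).

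**Figure D3:**
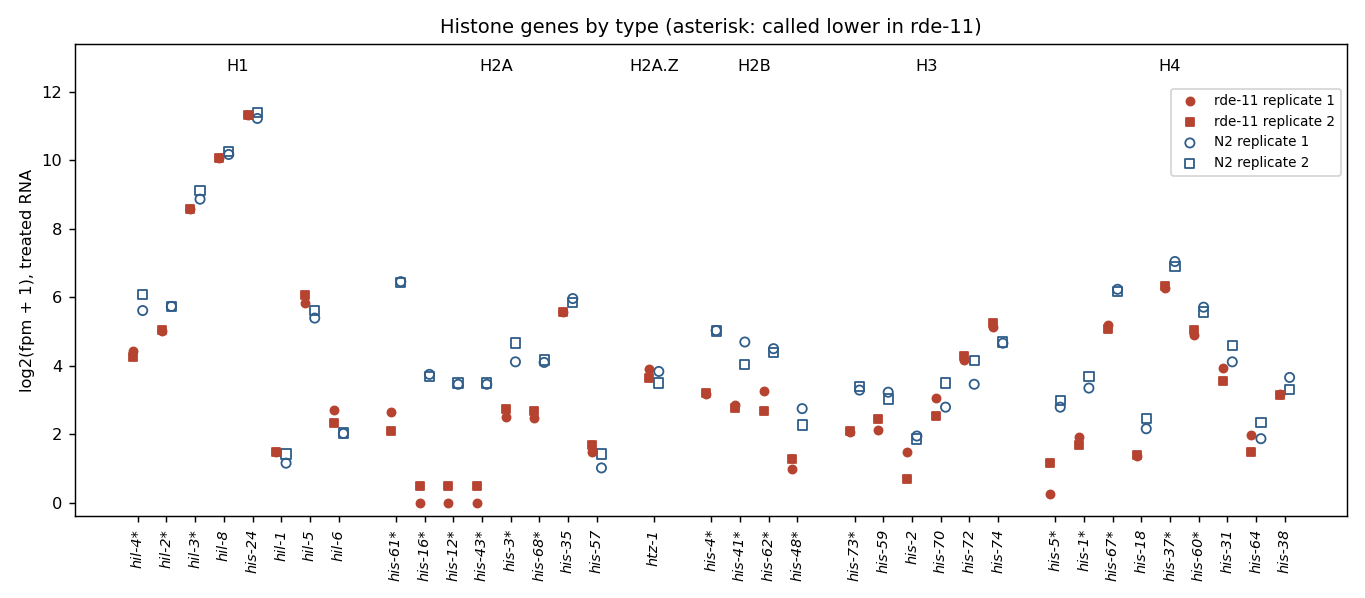
Level in each treated library, as log2(fpm + 1), of the 36 histone genes tested, grouped by histone type; asterisks mark genes called lower in rde-11. Filled red symbols are rde-11, open blue symbols N2. On this scale the H2A gene his-61 falls most, at 5.31 and 3.22 fpm in rde-11 and 86.8 and 85.0 fpm in N2, while of the 6 H3 genes only his-73 was called.

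Of 57 long intergenic noncoding RNA genes with a linc symbol, 17 were lower in rde-11 (29.8%, against 4.48% of all genes tested) and 1 was higher, with a median of -0.34 against 0.11 over all genes. Their summed level was 18736 and 18780 fpm in rde-11, against 29819 and 29230 fpm in N2. linc-22, given above, held the most of that difference, followed by linc-29 with 9498 and 9462 fpm in rde-11 and 12039.8 and 11769.5 fpm in N2 (-0.33), whose call was lost with microRNAs centred (-0.26, limma adjusted p = 0.09003), and linc-8 with 908 and 974 fpm in rde-11 and 2134 and 2260.2 fpm in N2 (-1.22). linc-61 (-2.41), linc-14 (-1.62) and linc-15 (-1.60) fell further from lower levels. linc-59 rose, with 964 and 889 fpm in rde-11 and 539.8 and 468 fpm in N2 (0.88, limma adjusted p = 2.35e-04). With the median gene centred 26 of the 57 were lower (against 8.53% of all genes), and with microRNAs centred 11 (against 494 of the 16491 genes tested).

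Known targets of the endogenous 26G pathway of ERGO-1 and NRDE-3, both Argonautes, were low in rde-11. Of the 5 tested, 3 fell and 0 rose by limma (0 by edgeR, 0 at an unadjusted p under 0.05). Of all genes tested 4.48% were lower, and of protein-coding genes above 1000 fpm 18.6%. Y47H10A.5 held 589 and 649 fpm in rde-11 and 1806 and 1822 fpm in N2 (-1.55, limma adjusted p = 4.28e-07). E01G4.5 held 108 and 97.05 fpm in rde-11 against 582 and 456 fpm in N2 (-2.32), and K02E2.6 815 and 916 fpm in rde-11 against 1685 and 1830.1 fpm in N2 (-1.02). The libraries of the strains did not overlap in any of the 3, and the summed level of the 5 genes was 1762 and 1877 fpm in rde-11 against 4334 and 4362 fpm in N2. Treated libraries of meg-3 meg-4 held 2639 and 3428 fpm of Y47H10A.5, 1899 and 1779 fpm of K02E2.6 and 152 and 121 fpm of E01G4.5. Other abundant protein-coding genes that lost many reads were F59C12.4, with 1747 and 1959.9 fpm in rde-11 and 3645 and 3918 fpm in N2 (-1.03), and Y17D7B.4, with 531 and 593 fpm in rde-11 and 2243 and 2255 fpm in N2 (4.004-fold lower in rde-11).

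In 3 large gene families the share of lower genes was above the 4.48% of all genes and the 5.71% of protein-coding genes. Of 210 F-box genes, 28 were lower (13.3%) and 8 higher, with a median of -0.23. The fbxb branch had 14 of 78 lower and 0 higher by limma (0 by edgeR, 1 at an unadjusted p under 0.05), and the fbxa branch had 12 lower and 7 higher. Apart from fbxa-61, fbxa-216 and fbxa-53 (2.16 and 1.01 fpm in rde-11, 22.01 and 19.8 fpm in N2), the falls were smaller: fbxb-97, the most abundant of the lower ones, held 1435 and 1484 fpm in rde-11 against 1901 and 1873 fpm in N2 (-0.37). fbxa-120 (799.5 and 762 fpm in rde-11, 489 and 498 fpm in N2) and fbxa-125 (41.5 and 49.3 in rde-11 and 18.5 and 13.6 in N2) rose. The summed level of the F-box genes differed little, 16482 and 15934 fpm in rde-11 and 16725 and 16557 fpm in N2. Of 68 C-type lectin genes, which encode secreted carbohydrate-binding proteins, 13 were lower (19.1%) and 2 higher. clec-166 held 0.393 and 0.805 fpm in rde-11 and 20.6 and 22.2 fpm in N2 (-3.82, limma adjusted p = 1.14e-06), and clec-119 fell at a higher level (34.8 and 33.6 in rde-11 against 67.04 and 66.6 in N2). Of 27 UDP-glucuronosyltransferase genes (ugt), 7 were lower (25.9%) and 0 higher by limma (0 by edgeR, 2 at an unadjusted p under 0.05), such as ugt-64, which held 40.9 and 42.3 fpm in rde-11 against 122 and 84.5 fpm in N2 (-1.27). With the median gene centred, where 8.53% of all genes were lower, 51 of the 210 F-box and 18 of the 68 C-type lectin genes were lower. With microRNAs centred, where 494 of the 16491 genes tested were lower, 17 F-box and 9 lectin genes were. With all 3 strains in 1 fit 16 F-box genes were lower, and 379 genes in all. In the treated meg-3 meg-4 libraries against N2, 55 of 200 F-box genes were lower and 5 higher (median -0.61). Of C-type lectin genes 2 of 65 were lower there, and of ugt genes 1 of 26, against 6.72% of all genes.

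Of 89 genes that encode the small RNA machinery itself, over all lists of its pathways, 23 were higher in rde-11 (25.8%, against 6.34% of all genes tested) and 1 was lower, with a median log2 change of 0.37 against 0.11. Of the 89, 52 averaged 50 fpm or more. Of all protein-coding genes 22.5% were higher at 50 to 200 fpm and 23.6% at 200 to 1000 fpm, close to the share in this list. For exogenous RNA interference 4 of 17 rose: rde-1, the primary Argonaute, with 74.7 and 94.03 fpm in rde-11 and 46.1 and 57.8 fpm in N2 (0.69), dcr-1, which encodes Dicer (89.4 and 126 in rde-11 and 57.5 and 68.5 in N2, 0.75), the Dicer-related helicase gene drh-1 (0.89) and the RNA-dependent RNA polymerase gene rrf-1 (226 and 252 in rde-11 and 135 and 158 in N2, 0.70). Of 4 genes of the CSR-1 complex, which targets germline transcripts, 3 rose. csr-1 held 484 and 641 fpm in rde-11 and 243 and 387 fpm in N2 (0.86, limma adjusted p = 0.0123), ego-1, its polymerase, 248 and 320.3 fpm in rde-11 and 146 and 191 fpm in N2 (0.75), and the helicase gene drh-3 rose by 0.58. For these 3 genes replicate 2 stood above replicate 1 in each strain, and the groups did not overlap. Of 12 secondary Argonautes (WAGO), wago-1 rose, with 145 and 189.7 fpm in rde-11 and 68.1 and 79.2 fpm in N2 (1.16, limma adjusted p = 6.04e-04), and sago-1 fell, with 5 and 3 reads in rde-11 and 26 and 28 in N2.

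The other branches are small, and single members are set against 6.34% of all genes. Many averaged 50 fpm or more: 13 of 16 nuclear and inherited silencing, 10 of 19 piRNA pathway and 11 of 16 P granule genes. Of protein-coding genes at 50 to 200 fpm 22.5% were higher, and at 200 to 1000 fpm 23.6%. The shares higher in these lists, 25%, 31.6% and 25%, were not matched by level. Of 12 genes of the ERI and 26G pathway 3 rose (rrf-3, eri-1 and dcr-1), of 9 Mutator genes 1 (rde-2) and of 7 of the microRNA branch 2 (ain-1, 99.7 and 112 fpm in rde-11 and 50.5 and 45.4 fpm in N2, and ain-2, both GW182 proteins). Of 16 genes of nuclear and inherited silencing 4 rose (heri-1, met-2, nrde-4 and set-32), but 0 with the median gene centred, where 1 was lower, and 1 rose and 1 fell by edgeR. Of 19 piRNA pathway genes 6 rose: prde-1 (34.2 and 50.1 fpm in rde-11, 20.4 and 25.8 fpm in N2) and snpc-4 (87.7 and 122 in rde-11 and 47.3 and 70.2 in N2), which act in piRNA transcription, tofu-4, ulp-5, pid-3 and the Argonaute gene prg-2. The piRNA Argonaute gene prg-1 was not called (466 and 562 in rde-11 and 370.3 and 502 in N2, 0.25, limma adjusted p = 0.312). Of 16 P granule genes 4 rose: pgl-1, glh-2, mip-1 and meg-4 (136 and 135 fpm in rde-11, 72.5 and 71.4 fpm in N2, 0.90), whose call was lost in the fit of 3 strains (adjusted p = 0.0724); meg-3 was not called (13.6 and 18.1 in rde-11 and 9.78 and 14.3 in N2). The 23 higher genes of these pathways came to 14 with the median gene centred (of 89, against 3.22% of all genes), 20 with microRNAs centred and 16 with edgeR. Without rde-11 replicate 2 they came to 5, without N2 replicate 1 to 10 and without N2 replicate 2 to 38, and with all 3 strains in 1 fit to 1.

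Chromatin regulators had the highest share of rises of the lists with at least 10 tested members. Of 26 genes, 16 were higher in rde-11 (61.5%, against 6.34% of all genes tested) and 0 lower by limma (1 by edgeR, 1 at an unadjusted p under 0.05), with a median of 0.63. Of the 26, 20 averaged 50 fpm or more, where the shares of all protein-coding genes given above apply. They included members of the SynMuv and NuRD-type repressors, which keep germline genes off in somatic cells: let-418, the Mi-2 remodeller, with 236 and 328 fpm in rde-11 and 123 and 153 fpm in N2 (1.02, limma adjusted p = 0.00204), lin-15B with 219 and 188 fpm in rde-11 and 101 and 91.2 fpm in N2 (1.07), mep-1 (0.84), lin-53 (0.89), dpl-1 (0.91), lin-9, lin-13 and lin-61. Histone methyltransferase genes rose too: mes-2 of the Polycomb complex, with 72.9 and 103 fpm in rde-11 and 39.1 and 51.1 fpm in N2 (0.94), its partner mes-6, set-2 (206 and 251 in rde-11 and 107 and 139.9 in N2, 0.89), mes-4, met-1, met-2 and set-32. In none of let-418, lin-15B, mes-2 and set-2 did the groups overlap. The 16 came to 9 with the median gene centred (against 3.22% of all genes), 11 with microRNAs centred and 10 with edgeR. They came to 5 without rde-11 replicate 2, 9 without N2 replicate 1 and 1 with all 3 strains in 1 fit, where lin-15B was still called (adjusted p = 0.0156).

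Genes were also grouped by symbol family (the letters before the hyphen). Of 103 families with at least 10 tested members, 23 had at least 3 higher members and a share at least 2 times the 6.34% of all genes. With the median gene centred, where 3.22% of all genes were higher, 10 of the 23 met the same rule. Levels were not matched in this rule, and of protein-coding genes at 50 to 200 fpm 22.5% were higher. The 6.34% also counts piRNA loci, of which 0.212% were called each way, and of protein-coding genes alone 9.10% were higher. Of the npp genes 18 of 26 averaged 50 fpm or more, and of the lin genes 16 of 39. Among nucleoporin genes (npp), 8 of 26 were higher, such as npp-15 with 166 and 226 fpm in rde-11 and 76.4 and 121 fpm in N2 (1.00), and 5 were with the median gene centred. Among kinesin genes (klp), 6 of 12 were higher, such as klp-18 with 349 and 510.0 fpm in rde-11 and 163 and 279 fpm in N2 (0.98), but 1 was with the median gene centred. The lin family had 10 of 39 higher (25.6%), the set family 7 of 29 (24.1%) and the chaperone family dnj 4 of 29 (13.8%). The share of dnj, like those of some others of the 23, was below 2 times the 9.10% of protein-coding genes. The acyl-CoA dehydrogenase family acdh had 4 of 11, where acdh-2 rose (1.75) and acdh-1 fell (10.2 and 14.1 fpm in rde-11, 47.1 and 33.4 fpm in N2, -1.64). On the lower side, where 4.48% of all genes and 5.71% of protein-coding genes were called, 8 families met the rule (his, linc, clec, ugt, fbxa, fbxb, ceh and anr). With the median gene centred 7 of them did so. The family unc had 9 of 70 higher and 3 lower: unc-44, which encodes ankyrin (27.7 and 34.6 fpm in rde-11, 108 and 117 fpm in N2, -1.82), the spectrin gene unc-70 (80.99 and 88.6 in rde-11 and 300.4 and 303 in N2, -1.82) and unc-83.

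Some germline and oocyte genes were higher as well. Of 27 meiosis genes 7 were higher (25.9%), of 31 maternal germline genes 6 (19.4%) and of 14 eggshell and oocyte genes 4 (28.6%), against 6.34% of all genes tested and 22.5% of protein-coding genes at 50 to 200 fpm. None was lower by limma, by edgeR or at an unadjusted p under 0.05. With the median gene centred 1 meiosis, 2 maternal germline and 1 eggshell and oocyte gene were higher, against 3.22% of all genes. The summed small RNA level of the meiosis genes was 2106 and 2514 fpm in rde-11, against 1454 and 1896 fpm in N2, and that of the eggshell and oocyte genes 1345 and 1651 fpm in rde-11 against 879 and 1209 fpm in N2. In each strain replicate 2 was above replicate 1. Differences between these lists and those of other tissues were not tested. Of 61 sperm genes 0 were higher by limma (0 by edgeR, 3 at an unadjusted p under 0.05) and 1 lower (spe-47, 46.001 and 57.4 fpm in rde-11, 142 and 133 fpm in N2), of 8 muscle genes 0 were called in either direction by limma (1 lower by edgeR, at an unadjusted p under 0.05 2 were higher and 1 lower), and of 14 neuron genes 1 was higher. The sums of the sperm genes were 687 and 706 fpm in rde-11 and 710.2 and 770.0 fpm in N2, and those of the muscle genes 91.8 and 98.1 fpm in rde-11 and 84.6 and 94.3 fpm in N2. Of 18 intestine genes, elt-7 was higher and the yolk gene vit-2 (9.04 and 10.9 fpm in rde-11, 21.4 and 18.1 fpm in N2) and pept-1 lower. The median of the 18 was -0.51, with 16 below 0 and 2 above, but only 1 of them averaged 50 fpm or more. These lists count small RNAs of marker genes, not their transcripts, and the part of tissue make-up in the changes was not tested.

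**Figure D4:**
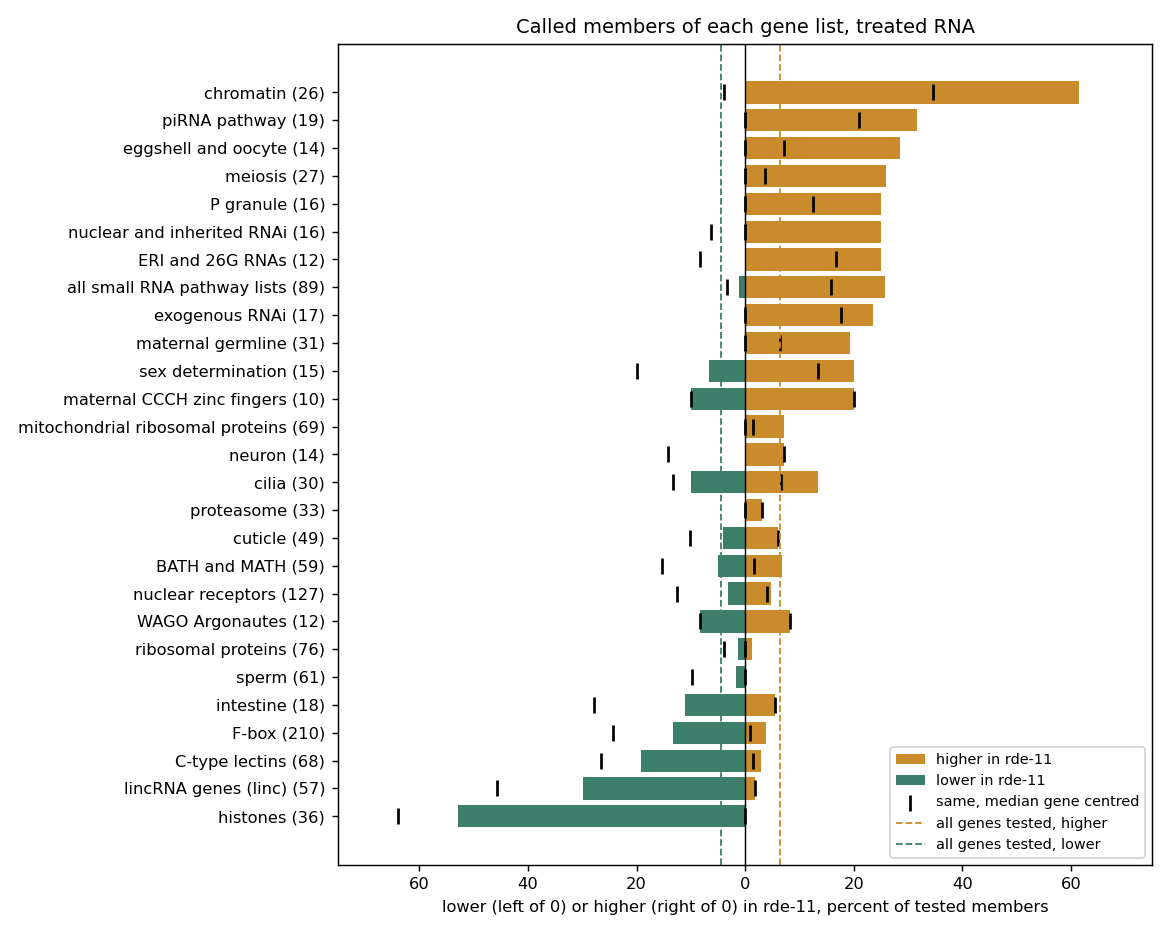
Percent of the tested members of each gene list that were called lower (green, left of 0) or higher (orange, right of 0) in rde-11, for lists with at least 10 tested members (number in parentheses). Black ticks give the same percent with the median gene centred, and dashed lines the percent over all genes tested, 4.48% lower and 6.34% higher. Chromatin genes stand farthest to the right and histone genes farthest to the left, and centring shifts both ends toward lower.

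The other lists are set against 6.34% of all genes tested called higher and 4.48% called lower. Of protein-coding genes alone, 9.10% were called higher and 5.71% lower. The shares higher and lower were 13.3% and 10% for cilium genes and 20% and 10% for maternal CCCH genes. For sex determination genes they were 20% and 6.67%, and for cytosolic ribosomal protein genes 1.32% each way. Of 30 genes of the primary cilium, the sensory antenna of worm neurons, 3 were lower (bbs-5, arl-13 and bbs-4, 22.6 and 24.4 fpm in rde-11 and 71.3 and 71.8 fpm in N2) and 4 higher, led by the intraflagellar transport gene osm-1 with 65.5 and 51.7 fpm in rde-11 and 21.6 and 22.2 fpm in N2 (1.37). Of 10 maternal CCCH zinc finger genes, the relatives of pos-1, mex-5 (35.8 and 51.9 fpm in rde-11, 21.2 and 26.97 fpm in N2) and mex-1 (43.4 and 71.3 in rde-11 and 21.8 and 36.5 in N2) rose. Of the 10, pos-1 was the only one called lower, and 2 had a change below 0. Of 76 cytosolic ribosomal protein genes 1 was higher (rpl-6) and 1 lower (rpl-38), with a median of 0.10. Of 69 mitochondrial ribosomal protein genes 5 were higher and 0 lower by limma, by edgeR or at an unadjusted p under 0.05, and of 33 proteasome genes 1 was higher. Of 127 nuclear receptor genes 6 were higher and 4 lower, of 59 BATH and MATH genes 4 and 3, and of 49 cuticle genes 3 and 2, where the higher ones (dpy-21, dpy-26 and dpy-27) are known for dosage compensation of the X chromosome. Of 15 sex determination genes 3 were higher, sdc-1 (1.06) and tra-2 among them, and 1 was lower (tra-3).

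Few microRNAs rose, and few piRNAs were called, although single piRNAs have few reads. Of 157 microRNA genes, 6 were lower (3.82%, near the 4.48% of all genes tested) and 1 higher (0.637%, against 6.34%). Apart from mir-262, the falls were small: mir-80 held 9511 and 8967 fpm in rde-11 and 14412 and 10891 fpm in N2 (-0.44), on a line whose values equal those of K01F9.6, mir-58a 8673 and 9735 fpm in rde-11 and 12656 and 10319 fpm in N2 (-0.31) and mir-246 3289 and 3422 fpm in rde-11 and 3942 and 4417 fpm in N2 (-0.31). These calls were not firm. That of mir-80 was lost without N2 replicate 1 (-0.24, limma adjusted p = 0.178) and with all 3 strains in 1 fit (0.109). That of mir-58a was lost with microRNAs centred (limma adjusted p = 0.141) and without N2 replicate 1 (-0.17, 0.405), and that of mir-246 with microRNAs centred (0.222) and without N2 replicate 2 (-0.23, 0.186). mir-253 rose, with 205 and 205 fpm in rde-11 and 107 and 94.8 fpm in N2 (1.02, limma adjusted p = 3.95e-04), and in untreated RNA with 691 and 656 fpm in rde-11 and 299.6 and 302 fpm in N2 (1.16, limma adjusted p = 4.86e-10). Of 4247 piRNA loci 9 were higher and 9 lower (0.212% each way).

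In untreated RNA, 0.396% of 11629 genes were higher and 0.198% lower in rde-11, 0.593% in either direction. Of the 1045 genes higher in treated RNA, 672 could be tested there: 25 were higher, 92.9% had a positive change, and their median was 0.57, against 71.8% and 0.19 over the 8998 genes tested in both. Of the 739 lower genes 193 could be tested: 14 were lower, 3 were higher, 67.4% had a negative change, and their median was -0.23. Among those lower in both were linc-22 (3.65 and 3.86 fpm in rde-11 and 17.5 and 22.4 fpm in N2 untreated RNA, -2.13), Y47H10A.5 (4.94 and 4.89 in rde-11 and 24.8 and 19.4 in N2, -1.95), his-61 (1.29 and 1.54 in rde-11 and 7.01 and 5.94 in N2), Y110A2AL.1 and Y50E8A.10. Y57G11C.51 went the other way: it fell in treated RNA, with 369 and 373 fpm in rde-11 and 914 and 1141 fpm in N2, and rose in untreated RNA, with 72.7 and 89.8 fpm in rde-11 and 34.6 and 46.8 fpm in N2. unc-116 rose in both (untreated 16.6 and 22.1 fpm in rde-11 and 6.14 and 5.25 fpm in N2, 1.59), and K07F5.6 rose more in untreated RNA (13.5 and 15.4 fpm in rde-11 and 0.219 and 0.685 fpm in N2, 3.43) than in treated RNA (5.11 and 4.63 fpm in rde-11 and 2.24 and 0.955 fpm in N2, 1.22). The interaction between strain and treatment was called for 77 genes by limma (0.455% of 16916), 16 with a higher change in treated than in untreated RNA (0.0946%) and 61 with a lower one (0.361%). For most genes with deep falls, such as fbxa-61 (0.215 and 0.257 fpm in rde-11 and 1.75 and 0.685 fpm in N2) and bbs-5 (0.645 and 0.515 in rde-11 and 0.657 and 0.913 in N2), untreated RNA held few reads in either strain, so the interaction there is nearly the treated change itself. Y57G11C.51 and K07F5.6 were chosen after their values were seen.

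**Figure D5:**
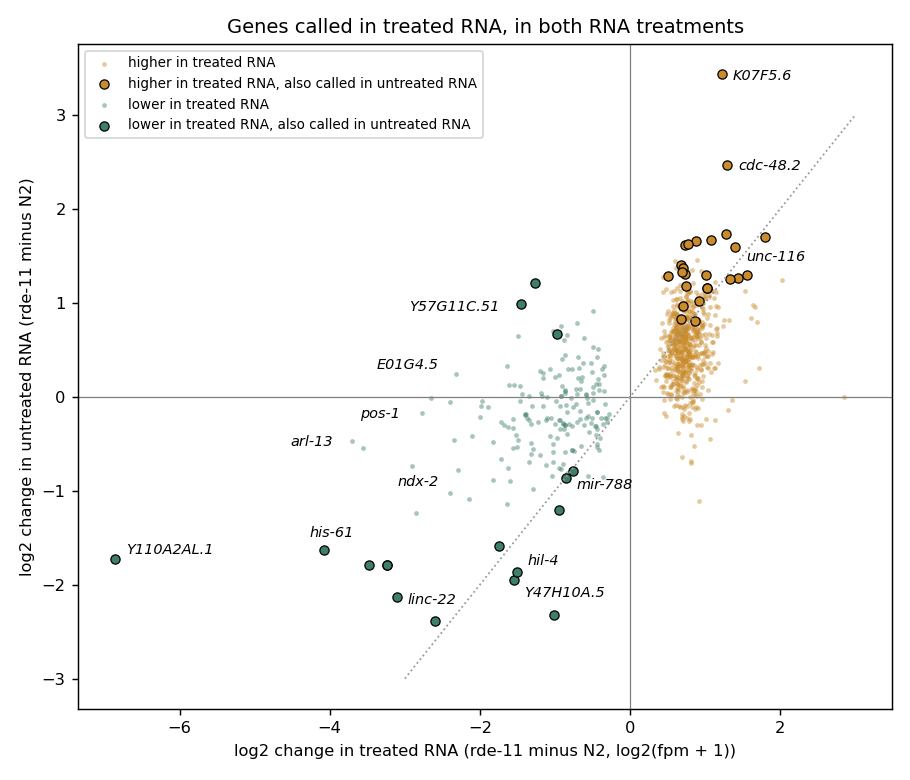
Log2 change (rde-11 minus N2, on log2(fpm + 1)) in treated RNA (horizontal) against that in untreated RNA (vertical), for genes called in treated RNA and tested in both. Orange genes were higher and green ones lower in treated RNA, outlined points were also called in untreated RNA, and the dotted line marks equal change. Higher genes gather above 0 on the vertical axis, while many lower genes such as pos-1 lie near 0 there, apart from 14 that were lower in both.

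The genes that gained and lost differed in length and level. Median exonic length by the annotation of WBcel235 was 2295 nt for the 1006 higher protein-coding genes (2441 nt for the 511 also called with the median gene centred) and 1194 nt for the 631 lower ones, against 1419 nt for the 11050 tested. In 4 equal bins of tested protein-coding genes, short to long, the percent higher was 1.88, 5.03, 10.2 and 19.4, and the percent lower 7.66, 6.04, 4.61 and 4.52. Levels moved with length, with median levels of 8.82 fpm in the shortest and 34.3 fpm in the longest bin, and their part was not separated. By level, the percent lower was 5.03 at 1 to 10 fpm, 4.74 at 10 to 50 fpm, 7.23 at 50 to 200 fpm, 13.1 at 200 to 1000 fpm and 18.6 above 1000 fpm, and the percent higher was 2.37, 8.88, 22.5, 23.6 and 7.14. Chromosome X had the highest percent higher among protein-coding genes (12.8%), and chromosome V the highest percent lower (7.62%). X also had 6.77% lower and the lowest median log2 change of the chromosomes (0.026).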

How the data were processed

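Small RNA libraries (TRIzol and column extraction, TruSeq small RNA kit) of whole worms were analysed from the fpm table, a CPM unit scaled to reads assigned to genes, that the authors deposited. Per the submitters' processing notes, cutadapt, Bowtie2, HTSeq and DESeq2 were used with ce10; these notes give no strand, read length or rule for multiple mapping. Columns named mutant and controlx were matched to samples by the table's name and the labels. Per the file headers, the authors also deposited their own log2 fold changes and adjusted p-values (369 higher and 501 lower genes of 11604 with an adjusted p in the authors' deposited table), which were not tested further; 6 average columns were not used.

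Values were whole multiples of 1 read (100% of values within 0.01 of a whole read), so reads were recovered; 1 read was 0.197 and 0.201 fpm in rde-11 and 0.204 and 0.239 fpm in N2. Floors use 3 reads and cover counting error only. Genes that averaged 1 fpm or more in the 4 libraries were tested on log2(fpm + 1) with limma 3.58.1 (R 4.3.3), strain as the only term, Benjamini-Hochberg adjustment over all genes tested and a threshold of 0.05. The change understates the fold of low genes. Strain by treatment was tested as an interaction over 8 libraries. edgeR 4.0.16 (quasi-likelihood) and DESeq2 1.42.0 on recovered reads, other scalings, filters and pseudocounts, all 3 strains, a replicate block and leaving out each library were alternatives. The scripts were tested on simulated data. Of the 42048 lines, 41759 matched a gene of the WBcel235 annotation by WormBase gene ID (used for names, classes, order, overlap and length, not coordinates). Of the tested lines, 3087 have values identical to another line.

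Named genes were the 15 largest rises and falls by log2 change among called genes averaging 50 fpm or more, the 10 largest gains and losses in fpm, called microRNAs from 50 fpm, called list members from 10 fpm, rde-11, pos-1, meg-3 and meg-4, and called members of families whose share of calls was at least 2 times that of all genes; any other is said to be chosen after its values were seen. Members and lists were chosen with earlier results of these data known.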

Additional observations from a re-analysis of the deposited data

Results flagged for a closer look

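For 28 of the genes named, the change between rde-11 and N2 differed between treated and untreated RNA, by the limma interaction at an adjusted p under 0.05. Values below are the log2 change in treated RNA minus that in untreated RNA. Of the 28, 17 were below the 1 fpm needed to be tested in untreated RNA and entered through their treated levels, so for them the value is close to the treated change and says nothing of its own about untreated RNA. The other 11 are Y110A2AL.1, arl-13, ztf-31, pos-1, E01G4.5, his-61, ndx-2, Y17D7B.4, let-805, pgl-3 and R102.4. Among genes that fell in treated RNA, the difference was -6.18 for fbxa-61, -5.13 for Y110A2AL.1, -4.74 for bbs-5, -3.95 for eri-12, -3.75 for fbxa-216, -3.68 for clec-166 and -3.35 for Y44E3A.1. It was -3.24 for arl-13, -3.14 for R05G6.5, -3.01 for ztf-31, -2.72 for 21ur-9719, -2.60 for pos-1, -2.56 for E01G4.5, -2.52 for fbxa-53 and -2.45 for his-61. For pqn-52 it was -2.34, for sago-1 -2.22, for fbxa-55 -2.22, for ndx-2 -2.16, for fbxa-54 -1.996, for Y17D7B.4 -1.79 and for let-805 -1.73. On the other side it was 2.14 for fbxa-125, 2.59 for T28D6.4, 2.79 for R13H4.5, 2.85 for R102.4 and 5.14 for elt-7, which rose in treated RNA, and 2.59 for pgl-3, which was not called there and fell in untreated RNA.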

How the results depend on the processing

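Of the named genes, 54 were followed through all settings, and none of these changed sign in any setting. The balance did change sign: over all genes the median log2 change was 0.11 as reported and -0.10 with the median gene centred. For cytosolic ribosomal proteins it was 0.10 and -0.11. The family lido had a high share of higher genes as reported (4 of 16) and of lower genes once centred (3 of 16). The count of 1045 higher genes came to 531 with the median gene centred, 157 with no filter on low values, 611 with edgeR, 364 with DESeq2, 149 with all 3 strains in 1 fit and 323 to 1778 with 1 library left out. The count of 739 lower genes came to 1406, 299, 379 and 496 to 730 with the median gene centred, no filter, 3 strains and 1 library left out, and to 477 among genes averaging 10 fpm or more. The interaction count of 77 came to 24 with edgeR, 436 with a pseudocount of 5 fpm and 10 to 51 with 1 library left out. The 19 lower histone genes came to 12 among genes averaging 10 fpm or more. The 17 lower linc genes came to 26 with the median gene centred, 11 with microRNAs centred and 10 with no filter, and the 28 lower F-box genes to 51, 17 and 11 in the same settings and 16 with 3 strains. The 23 higher small RNA pathway genes came to 14 with the median gene centred, 2 with no filter, 11 with DESeq2, 1 with 3 strains and 5 to 38 with 1 library left out. The 16 higher chromatin genes came to 9, 2, 9 and 1 in the same settings, 10 among genes averaging 10 fpm or more, 10 with edgeR and 5 to 17 with 1 library left out. The cause was not tested. Of the 54 genes followed, 39 gave the same result under all settings, and the other named genes are not counted here.

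With the replicate number as a block, 2909 genes were higher and 1304 lower by limma, and 1891 and 2025 by edgeR. In the same block fits, lower F-box genes came to 48 and 66, higher small RNA pathway genes to 55 and 41, and lower linc genes by edgeR to 29. Same-numbered libraries deviated together (r = 0.66 across 2985 genes, which are not independent replicates), but with 2 pairs and no label that says so, the samples share only a number.

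Limits: 2 libraries per strain give few residual degrees of freedom, so counts move with single libraries. Most genes with few reads could not be tested in untreated RNA, and reads that fit several copies of a gene are of unknown treatment.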
